A study of Bos taurus with 18 samples.

Results

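The 10 consecutive entries gene5022 to gene5031 of the cattle gene annotation were examined around gene5026, a short gene model on chromosome 4. The members were chosen by number: gene5026 because its deposited counts differed with age in the pituitary, and the others because they are its nearest neighbours in the numbering. Of the 10, 7 had a row in the count table, which lists 27376 gene models in all. The entries gene5022, gene5027 and gene5029 had no row there and no variant site, and were not analysed here. The tables do not pair these numbers with gene names, so no symbol or function is given for any member.

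Both tissues, pituitary and hypothalamus, had been taken from 9 cows of the Angus beef breed for sequencing of poly(A) RNA, giving 18 libraries in 6 groups of 3. The cows were 6 months old and freshly weaned, 18 months old and sexually mature, or 30 months old and past their first calving. Per the labels, all were healthy and none was in heat. No treatment or genetic change separates the groups, and each tissue piece holds a mixture of cell types, so fewer cells of a type and less RNA per cell cannot be told apart. Marker genes of the tissues could not be checked without gene names. Genotypes placed the libraries in 9 pairs, each with both tissues of 1 cow.

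The hypothalamus releases peptide hormones that drive or restrain the pituitary, and the pituitary secretes the hormones of growth, lactation, stress and reproduction. Together they govern puberty and the reproductive cycle, and the series asks which genes of these tissues bear on reproductive performance. A gene count asks that each aligned read be assigned to a gene model. The depth at a variant site asks for reads over that base, with no gene model assigned. The deposited depth also differed with the genotype call, as given below. Reads that fall where models lie inside one another, or where a near-identical copy exists elsewhere, may be assigned to either or to none. The counting rule is not given in the sources used here, and a copy of gene5026 elsewhere was not tested for, since no genome sequence was used here.

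The members span 518823 bases, from the first of their single-nucleotide polymorphism (SNP) sites at chromosome 4 position 93878574 to the last at 94397396. No header names a genome build, and positions are printed as the deposited table gives them. By their sites, the members lie in the order of their numbers, with 1 exception. The 67 sites of gene5025, a model of 12173 bases, run from 93952791 to 94148155, and the 5 sites of gene5026 lie among them, from 94003181 to 94003649. Of the sites of gene5025, 10 lie before those of gene5026 and 57 after them. The nearest are annotated as intronic, 2780 bases before and 133 bases after. Thus gene5026, of 1523 bases, sits within the span of gene5025, between sites of its introns. No other gene model had a site between the outermost members.

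All 5 sites of gene5026 were annotated as coding, 4 as nonsynonymous and 1 as synonymous, and all were called in 18 of 18 libraries. They show the bases of the reads placed over this model. Written as the reference base, the position and the alternative base, the sites were G94003181A (codon Gtc to Atc), T94003188G (gTt to gGt), G94003303A (ggG to ggA), G94003521A (tGt to tAt) and A94003649G (Aga to Gga), with the changed base in capitals in each codon. At the first 4 of these, all 18 libraries were called homozygous for the alternative base. Reference reads made up 18 of 2484 allele reads at G94003181A, 24 of 2484 at T94003188G, 36 of 3813 at G94003303A and 4 of 605 at G94003521A. At A94003649G, where the depth was 3 to 10 reads, 11 libraries were called homozygous for the alternative base and 7 heterozygous, and reference reads made up 8 of 103 (7.77%). At the first 4 sites, the reads placed over gene5026 carried the alternative bases in both tissues of all 9 cows. Under 1% of reads at each were for the reference. Whether these reads come from gene5026 or from a copy elsewhere was not tested.

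Such uniform sites are uncommon in this table. Of 20917 coding SNP sites called in all 18 libraries, 941 (4.50%) were homozygous for the alternative base in all of them, against 4 of 5 in gene5026. None of the sites called in all 18 libraries was so in the other members, which had 5 such sites in gene5023, 10 in gene5024, 5 each in gene5025, gene5028 and gene5030, and 19 in gene5031. Of 1906 gene models with at least 4 coding sites called in all libraries, 16 (0.839%) had at least 80% of them uniform, a limit set after the share of gene5026 had been seen.

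The counts of gene5026 chose it, and its values in the pituitary are given as a description. At 6 months the 3 pituitary libraries held 4, 0 and 1 counts. At 18 months they held 1248, 1225 and 653 counts, and at 30 months 1464, 1301 and 1452. The older pituitary groups lay far above the youngest, with no overlap. In the hypothalamus the order of ages was lost. The 6-month libraries held 740, 0 and 42 counts, the 18-month libraries 2, 1268 and 1284, and the 30-month libraries 0, 905 and 2. Filled and empty libraries thus occurred at each age in the hypothalamus. A count of 0 out of these totals allows up to 3 counts, or 0.10005, 0.0949 and 0.0937 CPM (the count scaled to the library's total count) in the 6-month pituitary replicate 2, the 6-month hypothalamus replicate 2 and the 30-month hypothalamus replicate 1. Such limits cover counting error only.

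Scaled to library totals, the pituitary mean was 0.0455 ± 0.0541 CPM (SD, n = 3) at 6 months, 34.7 ± 13.4 at 18 months and 41.95 ± 4.16 at 30 months. Hypothalamus means were 7.86 ± 12.4, 26.1 ± 22.6 and 9.03 ± 15.6 CPM at the same ages, so in that tissue the spread within an age was about as large as the mean or larger. The deposited FPKM, a measure scaled by length and library, ran from 0.0141 ± 0.0225 in the 6-month pituitary to 21.2 ± 2.28 in the 30-month pituitary. It is not the deposited count rescaled, since its ratio to CPM differed between libraries within a model. In gene5031, the 30-month hypothalamus replicate 1 had 46.6 CPM and 5.57 FPKM. Replicate 3 of that group had more CPM (71.7) but less FPKM (4.69). How the FPKM was computed is not given in the sources used here. Among the 7 models, FPKM, which can be set across models, had its highest median over the 18 libraries in gene5023 (45.4), followed by gene5025 (27.8), gene5028 (12.7), gene5024 (4.32), gene5031 (4.04) and gene5030 (1.63). The FPKM of gene5026 was 10.2 to 23.6 in the 10 libraries with 653 or more counts, which overlaps the ranges of gene5028 (7.19 to 21.9) and gene5025 (16.8 to 37.01). The range of each model in this order overlapped that of the next, but libraries differ in level, and within libraries the order was steadier. The FPKM of gene5023 was above that of gene5025 in 18 of 18 libraries, gene5025 above gene5028 in 16, gene5028 above gene5024 in 18, gene5024 above gene5031 in 11 and gene5031 above gene5030 in 16.

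Reads over the sites of gene5026 did not follow those counts. At G94003303A, the deepest site, the 3 pituitary libraries of 6 months had 254, 226 and 238 reads, where the model's counts were 4, 0 and 1. The 18-month pituitary libraries had 217, 208 and 105 reads there, and the 30-month ones 231, 229 and 233. Among hypothalamus libraries, the 18-month replicate 1 had 291 reads, the most of any, beside a count of 2. The 30-month replicate 1 of that tissue had 262 reads beside a count of 0. In 8 of 18 libraries the whole model was given fewer counts than it had reads over a single coding base. These were the 3 pituitary libraries of 6 months and the hypothalamus replicates 2 and 3 of 6 months, 1 of 18 months, and 1 and 3 of 30 months. In those 8, the deepest site had 156 to 291 reads, and in the other 10 it had 105 to 233, so empty libraries were not the ones with few reads over the model.

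**Figure D1:**
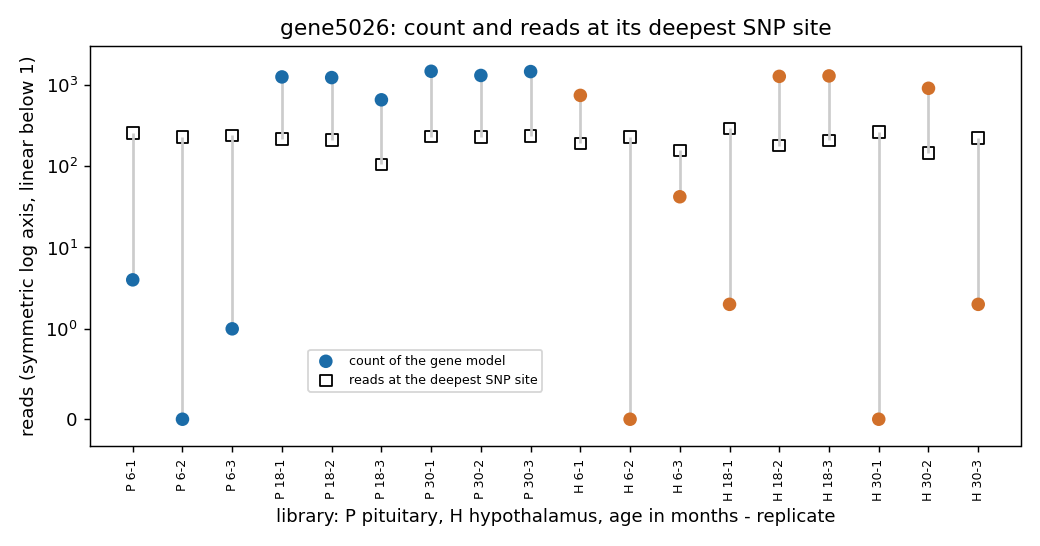
Count of gene5026 (filled points, blue for pituitary and orange for hypothalamus) and reads at its deepest SNP site (open squares) in each of the 18 libraries, on a symmetric log axis. The squares stay between 105 and 291 reads, while the counts fall below them in 8 libraries and reach 0 in 3 of these.

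Summed over its 5 sites and scaled to all SNP-site reads of the library, gene5026 had 93.2 ± 5.07 RPM of site reads (SD, n = 3) at 6 months, 89.7 ± 15.1 at 18 months and 90.7 ± 6.44 at 30 months in the pituitary. In the hypothalamus it had 81.3 ± 2.23, 90.3 ± 10.6 and 93.97 ± 10.2 RPM. Over the 18 libraries the level ran from 72.9 RPM in the 18-month pituitary replicate 3 to 104 RPM in the 30-month hypothalamus replicate 1, a 1.43-fold range. Its coefficient of variation was 9.89%, the lowest of the 7 members, while that of its CPM was 97.4%, the highest. The site reads are not alike across members, so this lowest rank is a description only. In gene5026 all 5 sites were called in each library and none as reference. In gene5023 the sites called ran from 9 to 48 by library, with uncalled sites as 0, and depth was lower at reference calls. A read that spans several sites counts at each, and the sites share reads.

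These site reads were not used to choose gene5026. They were tested in edgeR's quasi-likelihood test across the gene models with enough site reads to pass its filter. For any difference among the ages, gene5026 had an adjusted p of 0.977 in the pituitary and 0.969 in the hypothalamus with edgeR. Its estimated log2 difference of site reads in the pituitary was -0.09 (SE 0.224) at 18 against 6 months and -0.07 (SE 0.224) at 30 against 6 months. In the same contrasts its fitted log2 difference of counts was 9.40 and 9.61, values that chose it and that depend on the prior count, since the 6-month counts are 4, 0 and 1. Between tissues the log2 difference of site reads was 0.04 (SE 0.106, pituitary minus hypothalamus, edgeR adjusted p = 0.9999). Set against an SE of 0.224, a difference in site reads of the size found in counts was not seen, while a small one was not detectable.

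Across the models that passed the filter, edgeR called 0 of 13300 for site reads among ages in the pituitary (0% called; 1016 at an unadjusted p under 0.05), 0 of 13372 in the hypothalamus (0% called; 713) and 0 of 13784 between tissues (0% called; 501). DESeq2 called 150, 40 and 22 models in these comparisons and limma-voom 0, 0 and 0. No member passed in site reads under any alternative run. With a background of 0% called, the missing call of gene5026 is what nearly all models gave, and its size and SE are the values to read.

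The ratio of counts to site reads puts both measures together. In the 10 filled libraries, gene5026 had 1.57 to 3.13 counts per site read. The 30-month pituitary libraries lay closest together, at 2.56, 2.61 and 2.55. The lowest of the filled ones were the 6-month hypothalamus replicate 1, at 1.57, and the 30-month hypothalamus replicate 2, at 1.94. In the remaining 8 the ratio was at most 0.105, in the 6-month hypothalamus replicate 3, and 0 in 3 libraries. The states were far apart, and the library at 0.105 was the only one between 0.00577 and 1.57.

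On a log2 scale, with 0.5 added to both measures, the ratio of gene5026 had a range of 11.86 over the 18 libraries. This size depends on the 0.5 added, since 3 counts are 0. Among the 2739 gene models with at least 200 site reads in each library, the median range was 1.49, the 95th percentile 4.13, and gene5026 had rank 6 from the widest. In all, 83 of these models had a range above 5.

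**Figure D2:**
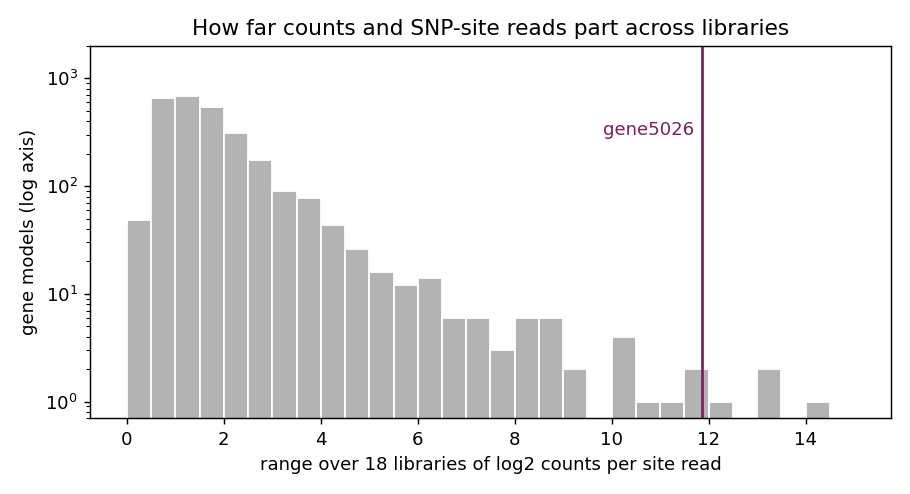
Histogram of the range over 18 libraries of log2 counts per site read, for the 2739 gene models with at least 200 site reads in each library (log axis for the number of models). The line marks gene5026 at 11.86, far to the right of the median of 1.49.

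A count below the depth of a single exonic site was not particular to gene5026. Among 5296 gene models with an exonic SNP site of at least 20 reads in all 18 libraries, 148 (2.79%) had a count below the deepest such site in at least 1 library, and 14 (0.264%) in all 18. In 40 models (0.755%), gene5026 among them, the count was under 10% of the deepest site in at least 1 library and at or above it in at least 1 other. The other 39 did so in a median of 2 libraries, and gene5026 in 7. With each library put in either state, the other 39 were in the same state as gene5026 in a median of 10 of 18 libraries and at most 13. None shared its pattern in full, but a full match needs 7 low libraries, which only 2 of the 39 had. By library, 15 to 36 of the 5296 models were under 10% of their deepest site. The highest number, 36, was in the 18-month pituitary replicate 3, which had the fewest SNP-site reads of all (3334980) and in which gene5026 was filled. None of the other 6 members had a count below its deepest exonic site in any of the 18 libraries. In gene5030 both were equal, at 25 and 46, in the 18-month pituitary replicates 2 and 3.

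The question of which neighbouring model gains counts where gene5026 is empty was put to the 6 other models with counts. An exchange index was computed for each over the 18 libraries, as 2 times the covariance of its CPM with that of gene5026, divided by the sum of both variances. It is 1 for the same pattern at the same amplitude. It is -1 where the other gains each count lost by gene5026 and varies in no other way. A model with independent variation of its own stays above -1 even at a full gain. Distance from -1 therefore does not decide whether counts were gained. None of the 6 came near -1. The index was 0.375 for gene5023, 0.277 for gene5024, 0.0668 for gene5031, 0.0238 for gene5025, 0.0215 for gene5028 and 0.0137 for gene5030. All 6 were above the median of the 25401 other models with a count, which was 0.000304, and the lowest of the 6 had rank 17421 from the lowest. The index is a description, with no test, and its jackknife SE was 0.151, 0.167, 0.228, 0.160, 0.189 and 0.0521 in the order just given. With 1 library left out at a time, it ran from 0.305 to 0.454 for gene5023 and from 0.162 to 0.331 for gene5024. It ran from 0.00621 to 0.201 for gene5031, and it took both signs for gene5025 (-0.0693 to 0.0904), gene5028 (-0.113 to 0.0812) and gene5030 (-0.00436 to 0.0483). On FPKM it was -0.0223 for gene5031 and 0.120 for gene5024.

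**Figure D3:**
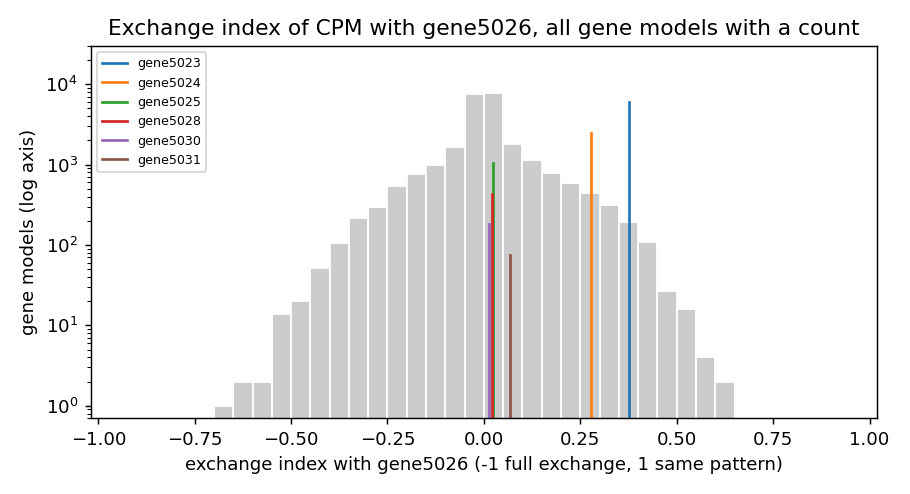
Histogram of the exchange index with gene5026 over the 25401 other gene models with a count (log axis for the number of models), with coloured lines at the 6 numbered neighbours. The neighbours lie between 0.0137 and 0.375, and no model of the table reaches -0.7.

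The encompassing model, gene5025, was the first to look at, since it spans gene5026. Its pituitary CPM was 209.8, 218 and 207 at 6 months, where gene5026 was empty, and 246, 231 and 232 at 30 months, where it was filled. The 18-month pituitary libraries had 287, 139 and 102 CPM. Its lowest pituitary levels thus lay in libraries where gene5026 was filled, and so did its highest. In the hypothalamus gene5025 had 146, 228 and 119 CPM at 6 months, 253, 183 and 226 at 18 months, and 234, 160.05 and 247 at 30 months. There, 4 of the 5 libraries with at most 42 counts of gene5026 had 228 to 253 CPM of gene5025, above the 146 to 226 CPM of the 4 filled ones. The fifth, the 6-month replicate 3, had 119 CPM, the lowest of that tissue. The hypothalamus index of gene5025 was -0.177, against 0.146 in the pituitary. The difference between the tissues was not tested.

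In 4 cows gene5026 was filled in 1 tissue and empty in the other. In the 18-month cow 1, gene5026 had 43.4 CPM in the pituitary and 0.0543 in the hypothalamus, while gene5025 had 287 and 253 CPM. The 30-month cow 1 had 38.5 and 0 CPM of gene5026, and 246 and 234 CPM of gene5025. In the 30-month cow 3, gene5026 had 46.6 and 0.0652 CPM, and gene5025 had 232 and 247 CPM. The 6-month cow 1 went the other way for gene5026, with 0.105 CPM in the pituitary and 22.2 in the hypothalamus, beside 209.8 and 146 CPM of gene5025. So gene5025 was higher in the emptier library in 2 of these 4 cows and lower in the other 2.

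Of the 8 cows in which the CPM of gene5026 differed between tissues, gene5025 differed in the opposite direction in 4. The number was also 4 for gene5023 and gene5031, 6 for gene5028, 3 for gene5030 and 2 for gene5024. The opposite difference was at least as large as that of gene5026 in 3 cows for gene5023, gene5025 and gene5031, 2 for gene5028, 1 for gene5030 and 0 for gene5024. No neighbour did so in all 8. Apart from the 4 cows above, gene5026 was filled in both tissues or low in both. In the 6-month cow 3 it had 0.0312 CPM in the pituitary and 1.41 in the hypothalamus, beside 207 and 119 CPM of gene5025. An opposite difference in such a cow does not bear on an exchange.

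How far an exchange could be seen depends on the spread of the neighbour. The SD over the 18 libraries was 19.4 CPM for gene5026. Smaller spreads were found for gene5030 (2.12 CPM), gene5024 (8.21 CPM) and gene5031 (18.6 CPM). At its highest, gene5030 had 8.22 CPM, which is below the 19.2 CPM that was the lowest level of gene5026 in a filled library. The SDs of gene5023 and gene5028 were 24.004 and 24.04 CPM. Adding gene5026 gave an SD of 36.2 CPM for the sum with gene5023 and 31.2 CPM for that with gene5028, where independent levels would give 30.9 and 30.9. The sum therefore did not vary less than its parts would. For gene5025 the SD was 51.04 CPM, more than that of gene5026, and the sum had 55.3 CPM against 54.6 for independent levels. A gain by gene5025 of the size of gene5026 was not detectable at that spread.

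**Figure D4:**
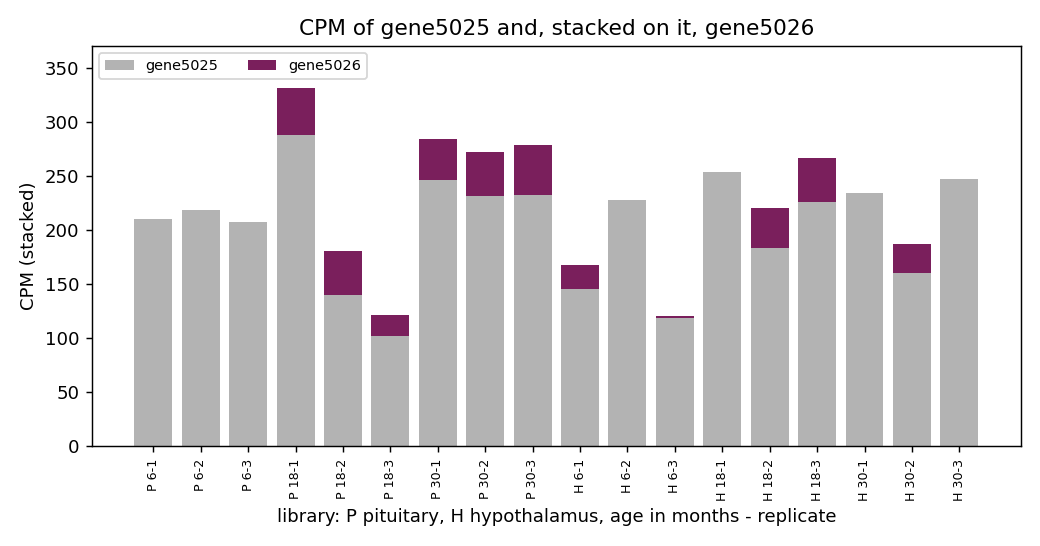
CPM of gene5025 (grey bars from 0) with the CPM of gene5026 stacked on top (purple) in each of the 18 libraries. The grey bars run from 102 to 287 CPM over all libraries. In the pituitary they stand at 207 to 218 CPM at 6 months, where the purple part is missing, and at 231 to 246 CPM at 30 months, where it is present, while 4 of the 5 hypothalamus libraries with little or no purple have taller grey bars than the other 4.

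Over the whole table, no model had an index of -1, which a model with independent variation of its own could not reach even at a full gain. The lowest index of the 25401 was -0.662 for gene4466, followed by -0.625 for gene25825 and -0.601 for gene8093, and 19 models were below -0.5. These 3 are long, at 23017, 11692 and 9773 bases, and vary by more CPM than gene5026 holds: gene4466 ran from 74.7 to 173 CPM. The models most like gene5026 over the 18 libraries were gene18264 (0.614), gene2653 (0.609) and gene21472 (0.568). Of these, gene2653, of 3051 bases, also had low and high libraries, from 2.67 to 56.7 CPM. It was low, at 3.95, 4.76 and 7.06 CPM, in the 18-month replicate 3 and the 30-month replicates 1 and 3 of the pituitary, where gene5026 was filled. An index chosen as an extreme of 25401 carries no test.

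The neighbours themselves kept steadier counts. CPM ran from 71.3 to 170 in gene5023, a 2.39-fold range, 102 to 287 in gene5025 (2.81-fold) and 42.6 to 137 in gene5028 (3.22-fold). Wider ranges were found for gene5024, from 11.1 to 45.3 CPM (4.09-fold), gene5031, from 11.7 to 79.9 CPM (6.84-fold), and gene5030, from 0.847 to 8.22 CPM (9.71-fold). No neighbour reached 0 counts, and the lowest count of any was 25, of gene5030 in the 18-month pituitary replicate 2.

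Age was tested in edgeR on the counts of the models that passed its filter, 9 libraries to a tissue. In the pituitary, 1 of 18555 models was called for any difference among the ages (0.00539% called; 1410 at an unadjusted p under 0.05; DESeq2 251, limma-voom 1), and it was gene5026. That contrast was used to choose it, and nothing is read from its call. None of the 6 neighbours passed, at edgeR adjusted p of 0.698 for gene5023, 0.786 for gene5028, 0.821 for gene5024, 0.858 for gene5030, 0.872 for gene5025 and 0.955 for gene5031. In simulated counts for this comparison, 1 of 50 models changed 2-fold was recovered, and 10 of 50 changed 4-fold. A neighbour's change of that size would thus mostly be missed. At 18 against 6 months, where gene5026 was filled and empty, the neighbours' log2 differences were 0.50 (SE 0.245) for gene5023, 0.64 (SE 0.467) for gene5024, -0.23 (SE 0.312) for gene5025, -0.33 (SE 0.291) for gene5028, -0.54 (SE 0.723) for gene5030 and -0.30 (SE 0.489) for gene5031. At 30 against 6 months the 6 ran from 0.00 for gene5031 to 0.51 for gene5024, with SE from 0.245 to 0.720, and none was negative. The 2 contrasts share the 6-month libraries.

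In the hypothalamus, 0 of 18763 models were called among the ages with edgeR (0% called; 838 at an unadjusted p under 0.05; DESeq2 68, limma-voom 0), and no member passed. The neighbours' edgeR adjusted p ran from 0.958 for gene5023 to 0.992 for gene5030. Simulated counts for hypothalamus age gave 3 of 50 models recovered at a 2-fold change and 23 of 50 at 4-fold. For gene5023 the 6-month libraries had 82.8, 111 and 71.3 CPM and the 18-month ones 124, 118 and 126, and the log2 difference was 0.45 (SE 0.180). Its pituitary levels at these ages were 105, 120 and 110 and 128, 145 and 170 CPM. The edgeR test over the ages gave it an unadjusted p of 0.0853 in the hypothalamus and 0.185 in the pituitary, neither of which passed before adjustment. For gene5026 the hypothalamus log2 difference was 1.74 (SE 2.51) at 18 against 6 months and 0.22 (SE 2.44) at 30 against 6 months, and the edgeR adjusted p for any difference was 0.992.

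**Figure D5:**
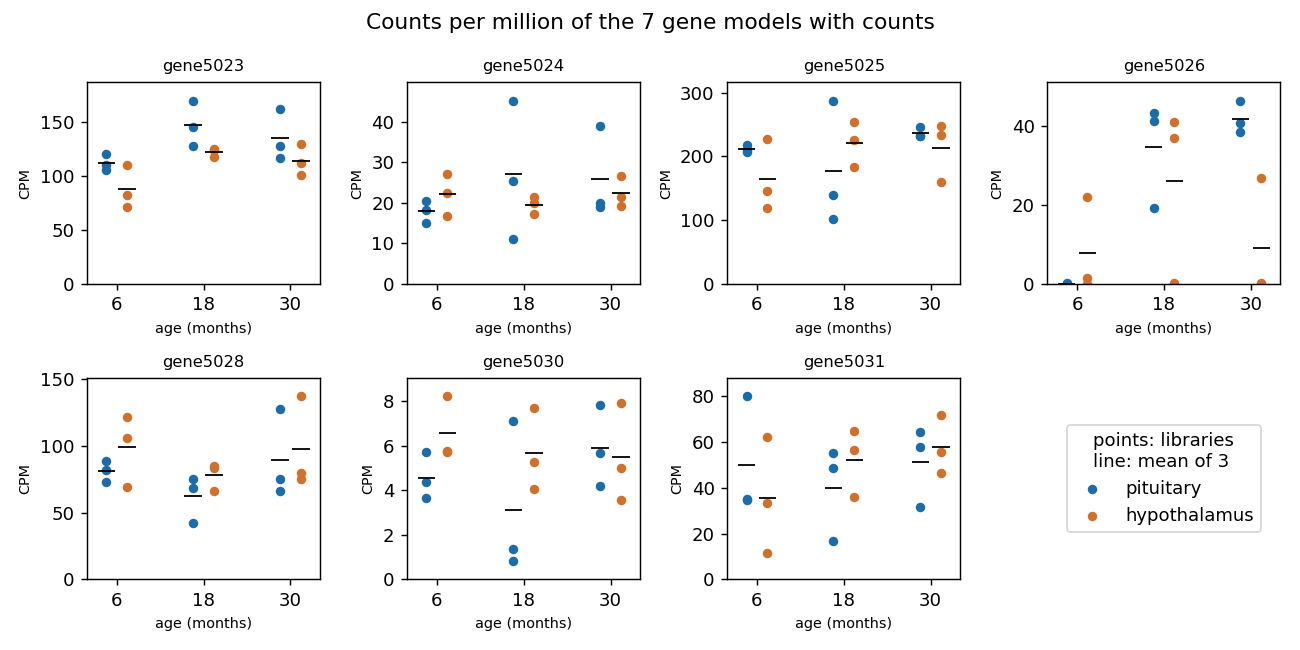
CPM of each of the 7 members with counts, by age, in pituitary (blue) and hypothalamus (orange); points are libraries and lines are means of 3. Only gene5026 has points at or near 0 in some libraries and at 19.2 CPM or more in others of the same tissue, and gene5023 has its highest mean at 18 months in both tissues.

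Between tissues, edgeR called 0 of 19707 models on counts (0% called; 1010 at an unadjusted p under 0.05; DESeq2 86, limma-voom 0). In simulated counts for this comparison, 37 of 50 models changed 4-fold were recovered, and 48 of 50 changed 16-fold. Why no model was called between libraries labelled pituitary and hypothalamus was not tested. The tissue labels could not be checked without gene names. The largest of the neighbours' differences relative to its error was that of gene5023, at a log2 difference of 0.31 (SE 0.120, pituitary minus hypothalamus, edgeR adjusted p = 0.911). With animal as a block, its edgeR adjusted p was 0.9995. Its CPM was higher in the pituitary of 8 of 9 cows, and how many other models reach that share was not counted. The differences of the other neighbours ran from -0.44 (SE 0.343) for gene5030 to 0.13 (SE 0.216) for gene5024. For gene5026 the value was -1.54 (SE 1.26, edgeR adjusted p = 0.9999).

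A property of the deposited depths stands beside the site reads of the neighbours. At 7377 SNP sites where at least 3 libraries were homozygous for the reference and at least 3 carried the alternative base at a median depth of at least 100 reads, the median depth was 159.5 in the latter and 68 in the former, and it was lower in reference calls at 94.9% of these sites. The limit of 100 reads was set on the calls with the alternative base alone, which favours a higher depth there. Over all calls at all sites, the median depth was 3 at reference calls and 5 at the others. Reference calls gave 52.6% of the site reads of gene5023, 75.4% of those of gene5024, 70.1% in gene5025, 44.9% in gene5028, 29.6% in gene5030 and 53.4% in gene5031, and 0% in gene5026. The part of these calls in the neighbours' levels was not tested. In gene5023, both tissues of the 6-month cow 2 had 144 and 119 RPM and those of the 30-month cow 3 had 138 and 148 RPM, against a median of 58.7 over the 18 libraries. The CPM of gene5023 in those libraries, of 111 to 129, lay close to its median of 119.

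With these limits, no neighbour passed in site reads. The edgeR adjusted p for age in the pituitary ran from 0.629 for gene5030 to 0.810 for gene5028, and in the hypothalamus from 0.901 for gene5025 to 0.954 for gene5028. In gene5025, site reads and counts went together. The ratio was 10.4 to 16.6 counts per site read in 17 libraries and 33.1 in the 18-month pituitary replicate 3. Where gene5026 was empty, in the 6-month pituitary, the ratio of gene5025 was 13.8, 15.01 and 10.4, and where it was filled, in the 30-month pituitary, 13.8, 11.04 and 13.8. In gene5028 the ratio was steadiest, at 4.87 to 7.53. In gene5030 the 18-month pituitary replicate 3 had 53.7 RPM of site reads, the most of any library (median 14.1), beside 1.36 CPM, which was next to the lowest. With only the sites at which all 18 libraries carry the alternative base, an alternative chosen after seeing these depths, gene5026 kept its 5 sites, gene5030 and gene5031 kept 1 each and the other neighbours none. The edgeR adjusted p of gene5026 was then 0.901 for age in the pituitary and 0.957 in the hypothalamus.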

How the data were processed

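The members and tests were chosen with earlier results of these data known. The named models are gene5022 to gene5031, any other model with a variant site among theirs, and the 3 highest and 3 lowest exchange indices. Tools listed in the submitters' processing notes are DESeq, GATK, StringTie and HISAT2; their roles and versions, and the build, are not given in the sources used here. The authors deposited whole-number counts with gene model lengths and, in a second table, FPKM. CPM and RPM were computed here from counts and site reads. Per the file headers, tables of 992284 SNP and 112197 indel sites give each library's genotype, depth as a count of reads, and allele reads.

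Columns were matched to samples by title code. Total counts ran from 28724861 to 38036840 per library and SNP-site reads from 3334980 to 7536307. None of the gene numbers (0 of 27376) matched the RefSeq gene table, so marker lists were not run. Site reads were summed per model, with uncalled sites as 0. Counts and site reads were tested with edgeR 4.0.16 (quasi-likelihood, TMM, filterByExpr, Benjamini-Hochberg adjusted p under 0.05; limma 3.58.1, DESeq2 1.42.0, R 4.3.3). Fits were tested on simulated data: of 50 models changed 4-fold in site reads, 22 were recovered for pituitary age. SE is the log2 difference over the square root of F. Replicate numbers follow accession order. Genotypes (sites of at least 20 reads) were 99.3% to 99.7% identical within a cow and 50.1% to 66.7% between cows, and each cow's libraries carry the same age and number. P-values for age measure spread between cows. The main tissue fits measured spread between libraries of a group and left out the pairing by cow. Only the alternative with animal as a block used that pairing.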

Additional observations from a re-analysis of the deposited data

How the results depend on the processing

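No neighbour passed under any alternative run, in counts or site reads, and gene5026 passed in none for site reads, for hypothalamus age or for tissue. For pituitary age in counts, the contrast that chose it, gene5026 passed in 7 of 15 alternative runs, and nothing is read from these. Calls over all models changed with DESeq2, to 251 (pituitary age), 68 (hypothalamus age) and 86 (tissue) for counts, and 150, 40 and 22 for site reads. With log2 FPKM in limma-trend, pituitary age gave 3 and 2 calls with 1 and 0.1 added, and with reference allele reads alone hypothalamus age gave 2. With 1 library left out, edgeR calls ran from 0 to 5 (pituitary age, counts; 5 when replicate 1 of 18 months was dropped, 1 for its replicate 3, 0 for each of the rest), 0 to 2 (tissue, counts; 2 on dropping pituitary 18-month replicate 2, and 1 on dropping hypothalamus replicate 3 of 18 months or 1 or 3 of 30 months), 0 to 1 (pituitary age, site reads; 1 on dropping replicate 2 of 18 months) and 0 elsewhere. With animal as a replicate block, tissue gave 0 calls in counts and 0 in site reads, and no call changed. RLE factors, no filter and limma-voom changed no count of calls. The lowest of the 6 neighbours' exchange indices was 0.0137 (gene5030), and -0.177 (gene5025) in the hypothalamus alone. With single libraries dropped, the lowest lay between -0.113 (gene5028, pituitary replicate 2 of 30 months) and 0.0483 (gene5030, pituitary replicate 2 of 18 months), and was -0.0693 and -0.05 (both gene5025) on dropping pituitary replicate 1 of 18 months and hypothalamus replicate 3 of 6 months. The cause was not tested. Low depths at reference calls limit the neighbours' site reads.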
